A study of Mus musculus with 6 samples.

Results

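The Notch pathway and the fate switch it governs were followed through 35 genes in the duodenum of mutant and control mice. The genes were taken by name: receptors, ligands, Hes and Hey genes, the nuclear complex, modifiers, proteases, and the secretory fate factors Atoh1 and Gfi1. Each had exactly 1 row among the 23699 rows (23235 symbols) of the gene tables. RNA of the duodenum next to the stomach was sequenced from 3 mutant and 3 control mice at 6 weeks of age, on a mixed background. All 3 mutants (TNint) were Nkx2.2flox/TN; Villin-Cre/+; Rosa26Tomato/+. Controls 1 and 2 were Nkx2.2flox/+; Rosa26Tomato/+, and control 3 was Nkx2.2flox/+ without the reporter. All 6 animals thus carried 1 floxed Nkx2.2 allele. All cells of the mutants carry the TN allele. Villin-Cre drives recombination in the intestinal epithelium, where recombined cells are left with TN as their only Nkx2.2 allele. Other cells of the mutants carry TN beside an intact floxed allele. Nkx2.2 is a transcription factor of enteroendocrine cells, and the TN allele is known to carry a changed tinman domain. Cre, the TN allele and loss of the floxed copy cannot be told apart with these groups.

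Notch receptors are cleaved when a neighbouring cell presents a Delta or Jagged ligand, and the freed intracellular part joins Rbpj and a Mastermind coactivator on target genes such as Hes1. In the intestinal crypt this keeps progenitors and directs cells to the absorptive fate, because Hes1 represses Atoh1. Cells that escape the signal express Atoh1 and the ligands Dll1 and Dll4, and become goblet, Paneth, tuft or enteroendocrine cells. In the wall below, the same pathway serves vessels and smooth muscle.

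Rbpj reads a short DNA word, and the 250 bases before the start are shown for 4 transcription factor genes: Hes5 and Hey2, textbook Notch targets, and Hes6 and Atoh1, the 2 members with the smallest p. RefSeq held windows for 28 of the 35 genes, in build GRCm38.p6. There was none for Hes1, Hes2, Hes3, Hey1, Heyl, Mfng and Mib1, so the Notch targets Hes1 and Hey1 could not be searched. The word searched was TGGGAA on both strands, set in capitals (TTCCCA on the printed strand where it reads the other way). Hes5 (chr4:154960673-154960922, plus strand) held it at 226 and 82 bases before the start, and Hey2 (chr10:30842784-30843033, minus strand) at 207 bases before. Neither Hes6 window (chr1:91414039-91414288 and chr1:91413223-91413472, minus strand) held it, nor did the window of Nrarp, also a Notch target and not printed, or that of Atoh1 (chr6:64728875-64729124, plus strand). Some genes have several windows. The word was in 9 of 36 windows of the members (8 of 28 genes) and in 21.6% of 32851 windows of this length. Besides Hes5 and Hey2 these genes were Hes7, Lfng, Maml2, Maml3, Psen2 and Rbpj. The printed windows were picked, so they set up no contrast between Notch targets and other genes. The longer word GTGGGAA was in 5 of the 36 and in 5.42% of all windows. A match is a description of letters and not a binding site.
Hes5: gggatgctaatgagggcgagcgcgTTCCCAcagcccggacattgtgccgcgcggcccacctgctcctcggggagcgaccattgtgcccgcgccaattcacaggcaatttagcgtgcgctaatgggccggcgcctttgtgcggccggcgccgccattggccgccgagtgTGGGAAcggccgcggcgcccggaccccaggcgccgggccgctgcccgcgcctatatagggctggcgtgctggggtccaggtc
Hey2: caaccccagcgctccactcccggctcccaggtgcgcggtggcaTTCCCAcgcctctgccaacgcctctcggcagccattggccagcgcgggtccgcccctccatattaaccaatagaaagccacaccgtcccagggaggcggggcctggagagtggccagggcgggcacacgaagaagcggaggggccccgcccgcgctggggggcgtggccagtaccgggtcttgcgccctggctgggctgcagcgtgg
Hes6, upstream window: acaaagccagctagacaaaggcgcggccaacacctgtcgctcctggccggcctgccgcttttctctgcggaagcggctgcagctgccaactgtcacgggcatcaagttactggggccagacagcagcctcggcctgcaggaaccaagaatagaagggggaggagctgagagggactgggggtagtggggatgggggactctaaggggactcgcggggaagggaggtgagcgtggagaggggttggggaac
Hes6, downstream window: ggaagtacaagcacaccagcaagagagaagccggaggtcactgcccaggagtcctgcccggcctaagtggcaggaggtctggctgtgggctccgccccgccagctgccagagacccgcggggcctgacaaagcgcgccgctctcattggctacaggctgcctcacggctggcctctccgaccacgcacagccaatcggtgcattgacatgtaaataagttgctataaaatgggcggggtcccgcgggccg
Atoh1: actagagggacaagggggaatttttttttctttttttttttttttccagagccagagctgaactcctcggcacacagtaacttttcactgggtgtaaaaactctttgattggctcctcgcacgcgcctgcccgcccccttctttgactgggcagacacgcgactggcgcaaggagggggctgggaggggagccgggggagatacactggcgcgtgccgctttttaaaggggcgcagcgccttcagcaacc

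Depth and sample quality bear on these levels as follows. Reads implied by the authors' intervals, in units of 1e6, came to 16.88 to 25.91 in mutants and 14.21 to 21.25 in controls. Duodenal epithelial markers were high in every library, with Vil1 at 630 to 699 FPKM, Pdx1 at 59.9 to 83.1 and Gata4 at 65.4 to 73.5. FPKM counts fragments per length of transcript and per depth of library, so levels of different genes can be set side by side. Pancreatic acinar transcripts varied with the library. The 12 rows of 9 marker symbols summed to 2179, 2395 and 10420 FPKM in mutants 1, 2 and 3. In controls 1, 2 and 3 they summed to 16.8, 362 and 9651 FPKM. Amy2a5 has several rows of near equal values, and each was counted in these sums. The targeted gene, Nkx2-2, had 0.748, 0.744 and 0.666 FPKM in mutants and 1, 1.03 and 1.27 FPKM in controls. The whole wall was sequenced, so fewer cells of a type and less RNA per cell cannot be told apart. Nothing in the labels says whether replicates came from separate litters or preparation days, and p-values measure only the spread between these libraries.

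Of the 35 genes, 33 had a mean of at least 0.1 FPKM over the 6 libraries and were tested, 29 reached 1 FPKM and 9 reached 10 FPKM. The remaining 2, Hes3 and Hes5, were at or near 0. Ncstn, Numb, Adam10, Hes6 and Hes1 stood highest, at percentiles 86.7 to 91.6 of all rows by control mean. Notch1 was the highest receptor at percentile 57.7, and Notch3 lay at 49.5.

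**Figure D1:**
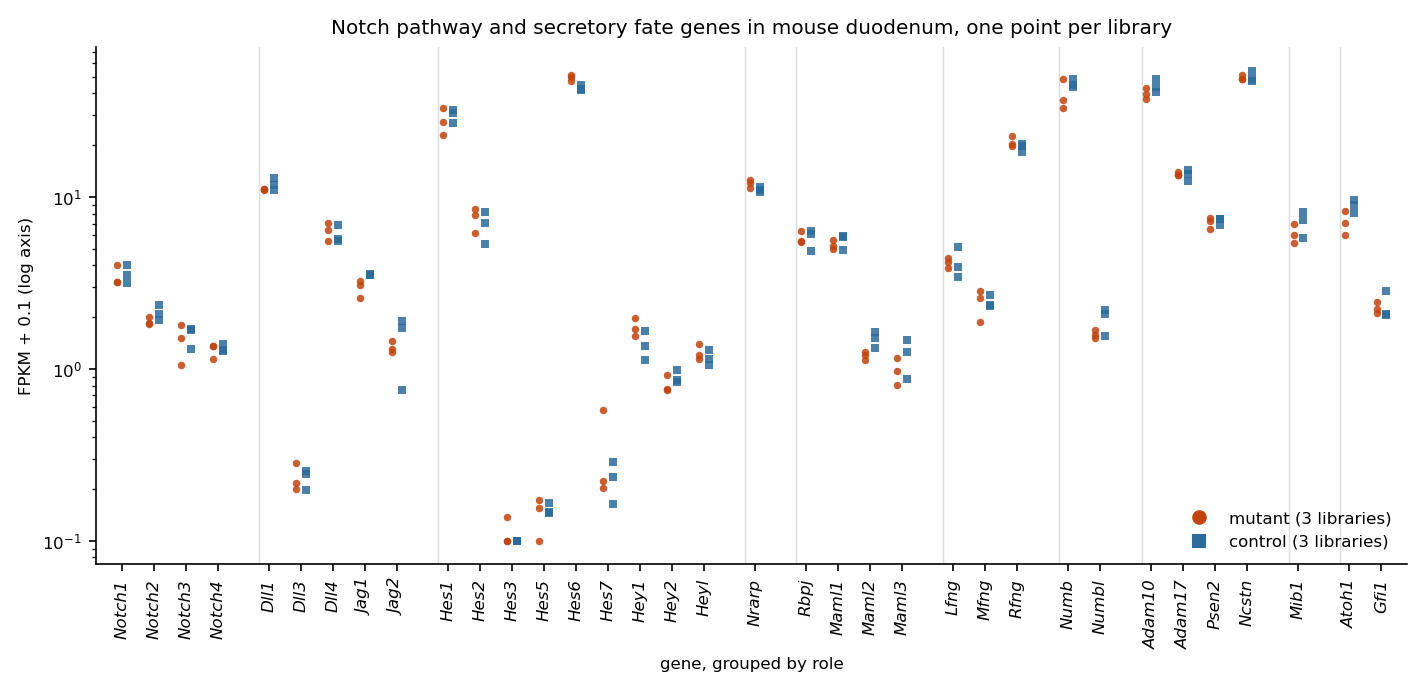
FPKM + 0.1 on a log axis for the 35 genes grouped by role, with 1 circle per mutant library and 1 square per control library. Hes6, Hes1, Numb, Adam10 and Ncstn lie highest and Hes3 and Hes5 at the bottom, and the circles and squares of all but 3 genes overlap.

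No gene of the pathway was called between mutant and control duodenum. None of the 33 tested had an adjusted p under 0.05 in limma, where 0% of the 15864 tested rows passed. The smallest adjusted p among the members was 0.786. Hes6, higher, and Atoh1, lower, were the 2 of 33 members whose unadjusted p was below 0.05, where 5.81% of all rows passed. Those rows were 237 higher and 685 lower in mutants. Scaling each library by a trimmed mean gave 517 higher and 390 lower, and normalizing by quantiles gave 360 higher and 431 lower. Without mutant 1 no member had an unadjusted p under 0.05, 1 had it without mutant 3 or without control 3, and 3 had it without mutant 2 or without control 2. Of all 15864 rows 636 had it without mutant 1, 617 without mutant 3 and 846 without control 3. It was reached by 1187 rows without mutant 2 and by 1022 without control 2. The members' log2 fold changes were above 0 for 11, below 0 for 21 and 0 when rounded for 1 (Dll3), with a median of −0.03 beside −0.05 for all rows. With trimmed mean scaling 18 lay above 0, 14 below and 1 at 0 when rounded. In the authors' deposited table all 35 members had an adjusted p of 1, where 7 of 18541 rows had one under 0.05. The smallest unadjusted p among members there was 0.0922, that of Hes6.

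Mutant libraries lay all above all control libraries for 1 member, Hes6, where 3.13% of tested rows did. They lay all below for 2 members, Jag1 and Maml2, where 9.92% of tested rows did. The other members overlapped between the groups. These positions, for members and for all rows, were read from FPKM without scaling between libraries.

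**Figure D2:**
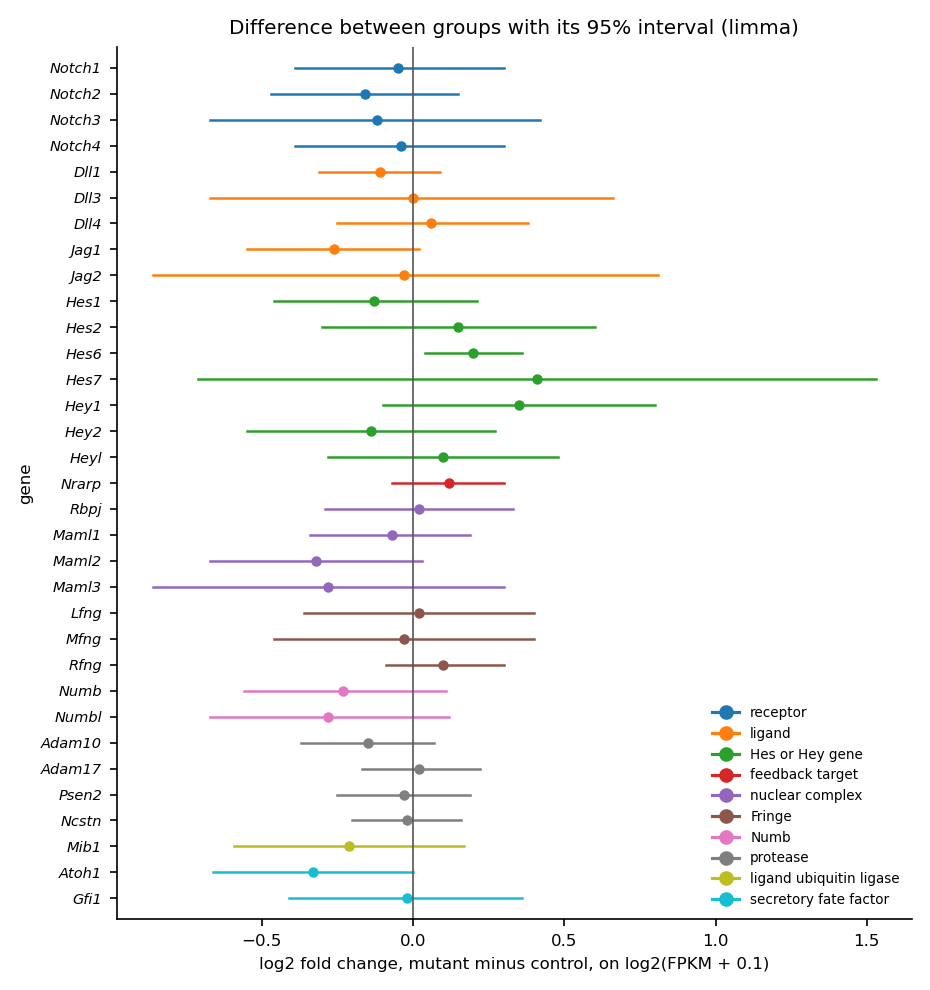
Log2 fold change of mutant minus control on the log2(FPKM + 0.1) scale for the 33 tested genes (points), with the 95% interval from limma (lines), coloured by role. Hes6 is the gene whose interval lies above 0, at 0.04 to 0.36, Atoh1 touches 0 from below, and Hes7 and Jag2 have the widest intervals.

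Notch1 was the leading receptor. It had 3.09, 3.92 and 3.09 FPKM in mutants and 3.93, 3.07 and 3.43 FPKM in controls, so the groups covered almost the same range. Notch1 made up 43.6% ± 2.3 of the summed receptor FPKM in mutants and 42.5% ± 2.59 in controls (SD, n = 3 each). Notch2, which shares the epithelial role with Notch1 in mouse crypts, followed with 23.4% ± 1.25 in mutants and 24.7% ± 1.68 in controls. Notch2 lay below Notch1 in all 6 libraries. Its log2 fold change was −0.16, with a 95% interval of −0.47 to 0.15.

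Notch3, the receptor of vascular smooth muscle and pericytes, had 1.42, 1.7 and 0.96 FPKM in mutants and 1.59, 1.21 and 1.6 FPKM in controls. Mutant 3 was the lowest, and without it the log2 fold change of Notch3 turned to 0.09, against −0.12 with all libraries. Notch4, an endothelial receptor, had 1.04 to 1.25 FPKM in mutants and 1.16 to 1.29 in controls. Notch3 stood above Notch4 in 5 of 6 libraries, and their ranges overlapped. Without scaling, 9722 of the 15864 tested rows had a log2 fold change below 0, and the median of all rows was −0.05. Of 5 pericyte markers all had lower means in mutants, and their sums were 41.7 to 48.3 FPKM in mutants and 53.9 to 63.2 FPKM in controls. Of 6 smooth muscle markers all were lower too, with sums of 465 to 619 FPKM in mutants and 628 to 888 FPKM in controls. The median log2 fold changes were −0.34 for the pericyte and −0.51 for the smooth muscle markers. The part of these cell types in the levels of Notch3 was not tested.

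Among ligands Dll1, the Delta ligand of secretory progenitors, was the most abundant. Dll1 had 11, 11 and 10.9 FPKM in mutants and 11.7, 12.9 and 10.9 FPKM in controls. Controls 1 and 2 stood above the mutants and control 3 lay among them. Its log2 fold change was −0.11 with an interval of −0.31 to 0.09. Dll4, the other Delta ligand of secretory progenitors and also an endothelial ligand, had 5.44, 6.35 and 6.92 FPKM in mutants and 5.61, 5.48 and 6.79 FPKM in controls. Mutants and controls were interleaved. Dll1 made up 51.2% ± 2.68 of ligand FPKM in mutants and 52.1% ± 4.77 in controls, and Dll4 made up 29.1% ± 2.16 in mutants and 26.2% ± 2.93 in controls (SD, n = 3 each).

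Jag1, the Jagged ligand of vessels and mesenchyme as well as epithelium, was lower in each mutant than in each control. It had 2.47, 3.14 and 2.97 FPKM in mutants against 3.41, 3.43 and 3.44 FPKM in controls. The 3 controls lay close together, and mutant 1 stood lowest. Mutant minus control came to −0.26 on the log2 scale (SE 0.12), with an unadjusted p of 0.0675 and an adjusted p of 0.786. Over the alternatives it ran from −0.33 to −0.16. Of 6 endothelial markers all had lower means in mutants, with sums of 41 to 48.3 FPKM in mutants and 42.5 to 50.1 FPKM in controls that overlapped. Their median log2 fold change was −0.1 beside −0.05 for all rows, of which 9722 of 15864 lay below 0. The pericyte and smooth muscle sums given beside Notch3 were lower in mutants without overlap, as Jag1 was. The same held for the sum of 4 immune cell markers, at 59.8 to 64.3 FPKM in mutants and 64.9 to 65.3 FPKM in controls. Of these 4 markers 3 had lower means in mutants, and Cd3e had a higher one. The enteroendocrine sum was also lower without overlap, at 58.6 to 91.3 FPKM in mutants and 123 to 139 FPKM in controls. All these sums are of FPKM without scaling between libraries. Of single tested rows 9.92% lay all below. The part of these cell types in the level of Jag1 was not tested.

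Jag2, another Jagged ligand, had 1.2, 1.15 and 1.35 FPKM in mutants and 1.81, 0.652 and 1.63 FPKM in controls. Control 2 stood far below the other libraries, and without it the log2 fold change of Jag2 was −0.45, against −0.03 with it. Dll3, a divergent ligand that does not activate receptors on neighbouring cells, was barely present, at 0.183, 0.0992 and 0.117 FPKM in mutants and 0.145, 0.0969 and 0.155 FPKM in controls. The order Dll1, Dll4, Jag1, Jag2, Dll3 held in all 6 libraries.

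**Figure D3:**
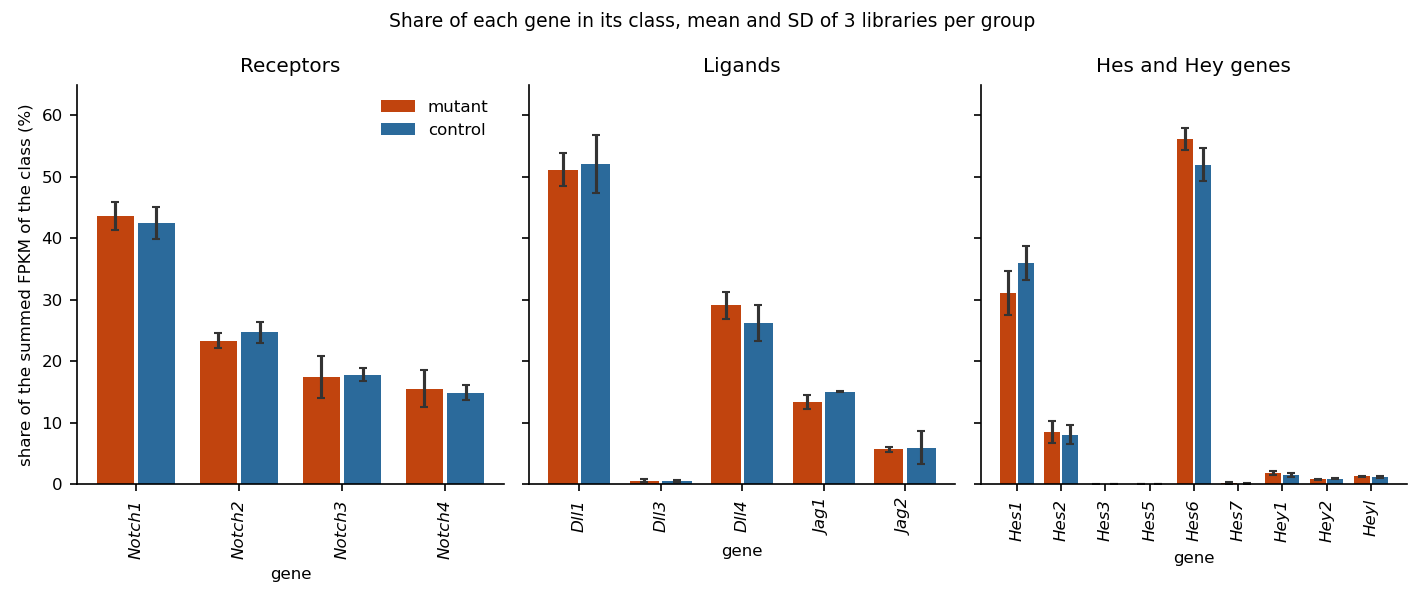
Share of each gene in the summed FPKM of its class (percent), for receptors, ligands, and Hes and Hey genes, as bars of the mean with SD over 3 mutant libraries (left bar) and 3 control libraries (right bar). Notch1, Dll1 and Hes6 lead their classes in both groups.

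Hes6 was the most abundant gene of the Hes and Hey family in all 6 libraries and the one whose groups did not overlap. It is a family member that in mouse opposes Hes1 and is not induced by Notch. In the mm9 annotation it lies at chr1:93308060-93310615 on the minus strand and is protein coding. Hes6 had 51, 49.9 and 47.3 FPKM in mutants against 41.9, 44.9 and 42.3 FPKM in controls. The lowest mutant, mutant 3, stood above the highest control, control 2. Its mean was 49.4 ± 1.92 FPKM in mutants and 43 ± 1.61 FPKM in controls (SD, n = 3 each). Mutant minus control was 0.2 on the log2 scale (SE 0.07), with an unadjusted p of 0.0203 and an adjusted p of 0.786, so it was not called. It ran from 0.17 to 0.25 over the alternatives, and its unadjusted p was 0.0671 without mutant 1, 0.0529 without mutant 2, 0.0628 without control 1 and 0.0514 without control 3. The authors' deposited table gave Hes6 a fold of 1.18 for mutant over control, from 1118 and 944 normalized counts.

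Hes1, the Notch target that represses Atoh1, was second in its family. In the mm9 annotation it lies at chr16:30064470-30067882 on the plus strand. It had 32.8, 27.1 and 22.7 FPKM in mutants and 30.8, 26.9 and 31.7 FPKM in controls. Mutant 1 was the highest library and mutant 3 the lowest, so the groups overlapped throughout. The log2 fold change was −0.13, with an interval of −0.46 to 0.21, and it was 0 when rounded without mutant 3. Hes1 made up 31.1% ± 3.56 of Hes and Hey FPKM in mutants and 35.9% ± 2.76 in controls (SD, n = 3 each). The ratio of Hes6 to Hes1 within a library was 1.56, 1.84 and 2.08 in mutants and 1.36, 1.67 and 1.33 in controls.

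Hes2, a repressor of the same family, followed Hes1 with 6.1, 8.44 and 7.77 FPKM in mutants and 5.19, 6.94 and 8.05 FPKM in controls. The libraries with the lowest Hes2 were mutant 1 and control 1, so its level varied within groups more than between them. With the acinar marker level as a covariate its log2 fold change was −0.06, against 0.15 without. Hey1, a Notch target of vessels, had 1.62, 1.46 and 1.88 FPKM in mutants and 1.03, 1.26 and 1.57 FPKM in controls. Its log2 fold change of 0.35 had an interval of −0.1 to 0.8, and only the highest control, control 3, lay within the mutant range. With the acinar covariate the log2 fold change of Hey1 was 0.14. Heyl and Hey2, the other Hey genes, had log2 fold changes of 0.1 and −0.14, with 1.04 to 1.29 and 0.651 to 0.818 FPKM in mutants and 0.957 to 1.19 and 0.734 to 0.886 FPKM in controls.

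The remaining Hes genes are known from the somite clock and from neural progenitors, and were near the floor. Hes7 had 0.475, 0.103 and 0.122 FPKM in mutants and 0.188, 0.063 and 0.134 FPKM in controls, and mutant 1 alone set its positive fold change, which was −0.07 without that library. Hes5 had 0.0562, 0.0729 and 0 FPKM in mutants and 0.0668, 0.0445 and 0.0474 FPKM in controls. The authors' deposited table gave Hes5 a mean of 0.899 normalized counts in mutants and 1.07 in controls, about 1 read per library. Hes3 was listed at 0 in all controls and in mutants 2 and 3, with 0.0369 FPKM in mutant 1. Neither was detectable well enough at this depth for a comparison.

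Nrarp, a Notch target that dampens the nuclear complex in a feedback loop, had 12.4, 11.9 and 11.1 FPKM in mutants and 10.5, 10.9 and 11.3 FPKM in controls. Mutant 3 lay just below control 3 and the other mutants above all controls. Its log2 fold change was 0.12 (interval −0.07 to 0.3), and it ran from 0.08 to 0.17 over the alternatives.

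Rbpj, the DNA-binding partner of cleaved Notch, had 6.23, 5.42 and 5.4 FPKM in mutants and 6.21, 5.97 and 4.75 FPKM in controls. The groups overlapped, and the log2 fold change was 0.02 with an interval of −0.29 to 0.33. Of its 3 RefSeq transcripts NM_001080927 carried 98.3% ± 2.97 of Rbpj FPKM in mutants and 98.2% ± 3.08 in controls (SD, n = 3 each). The Mastermind coactivator Maml1 was as abundant as Rbpj, at 5.1, 5.53 and 4.89 FPKM in mutants and 5.83, 5.76 and 4.79 FPKM in controls, and the order of Rbpj and Maml1 changed between libraries.

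Maml2, another Mastermind coactivator, was lower in each mutant than in each control on unscaled FPKM. It had 1.1, 1.02 and 1.15 FPKM in mutants against 1.22, 1.4 and 1.54 FPKM in controls, so the gap between mutant 3 and control 1 was narrow. On the log2 scale the difference was −0.32 (SE 0.15), its unadjusted p was 0.07 and its adjusted p 0.786. Its 2 RefSeq transcripts, NM_173776 and NM_001013813, took 57% ± 13.4 and 43% ± 13.4 of Maml2 FPKM in mutants and 56.6% ± 13.9 and 43.4% ± 13.9 in controls (SD, n = 3 each). Maml3 had 0.871, 1.05 and 0.705 FPKM in mutants and 1.37, 1.15 and 0.776 FPKM in controls. Its log2 fold change was −0.28, and 0.01 with the acinar covariate.

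Fringe enzymes add sugar to Notch and shift which ligands it answers to. Rfng was the leading one, with 20.1, 22.4 and 19.6 FPKM in mutants and 19.6, 20.2 and 18.1 FPKM in controls, or 76.4% ± 2.48 of Fringe FPKM in mutants and 75.1% ± 3.3 in controls (SD, n = 3 each). Lfng had 3.76 to 4.31 FPKM in mutants and 3.32 to 4.98 in controls, and Mfng 1.76 to 2.74 FPKM in mutants and 2.23 to 2.59 in controls. The order Rfng, Lfng, Mfng held in all 6 libraries, and the log2 fold changes were 0.1, 0.02 and −0.03.

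Numb, an endocytic adaptor that antagonises Notch, was among the most abundant of the 35 genes. It had 36.6, 48.3 and 32.9 FPKM in mutants and 43.2, 48.4 and 44.5 FPKM in controls. Mutants 1 and 3 lay below all controls and mutant 2 among them. The log2 fold change was −0.23 with an interval of −0.56 to 0.11. Without mutant 2 it was −0.38 (limma, unadjusted p 0.00625, adjusted p 0.657), and without mutant 3 it was −0.11 (unadjusted p 0.452). Of the 16 alternatives 1 gave Numb an unadjusted p under 0.05. NM_001136075 carried 96.1% ± 1.73 of Numb FPKM in mutants and 97.2% ± 1.89 in controls (SD, n = 3 each). Its relative Numbl had 1.42, 1.58 and 1.47 FPKM in mutants and 2.11, 1.46 and 1.98 FPKM in controls, where control 2 fell into the mutant range.

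Of the proteases that release Notch, Adam10, the main sheddase, had 42.6, 39.5 and 37.1 FPKM in mutants and 48.5, 43.6 and 40.5 FPKM in controls. The log2 fold change was −0.15 with an interval of −0.37 to 0.07. Adam17, a related sheddase, had 13.2 to 13.9 FPKM in mutants and 12.2 to 14.3 in controls. The gamma-secretase subunits Ncstn and Psen2 had 48.2 to 51 and 6.41 to 7.46 FPKM in mutants and 46.9 to 54.2 and 6.8 to 7.36 FPKM in controls. Log2 fold changes of Adam17, Ncstn and Psen2 were 0.02, −0.02 and −0.03, and their intervals reached no further than 0.25 from 0. The locus of Adam17 overlaps that of Iah1 (mean 48.9 FPKM over the 6 libraries), that of Ncstn overlaps Copa (98.6 FPKM) and that of Dll4 overlaps Gm14207 (2.64 FPKM), and the sources used here do not say how reads were shared between them. Mib1, the ubiquitin ligase that activates ligands in the sending cell, had 5.86, 6.88 and 5.28 FPKM in mutants and 8.08, 5.65 and 7.22 FPKM in controls, with a log2 fold change of −0.21 (interval −0.59 to 0.17).

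Atoh1, the factor that secretory cells require in mouse intestine, had a lower mean in mutants, and the groups overlapped. In the mm9 annotation it lies at chr6:64679140-64681227 on the plus strand and is protein coding. Atoh1 had 5.91, 8.17 and 6.99 FPKM in mutants against 7.93, 9.54 and 8.93 FPKM in controls. Mutant 2 lay between controls 1 and 3, and the other mutants lay below all controls. The mean was 7.02 ± 1.13 FPKM in mutants and 8.8 ± 0.815 FPKM in controls (SD, n = 3 each). On the log2 scale mutants differed from controls by −0.33 (SE 0.14), with an unadjusted p of 0.0483 and an adjusted p of 0.786, so it was not called. It stayed below 0 in all 16 alternatives, from −0.44 to −0.21, and its unadjusted p ran from 0.0101 with the replicate block to 0.147 without mutant 1. That p was under 0.05 in only 6 of the 16. It was 0.0859 with trimmed mean scaling and 0.0891 with quantile normalization. The authors' deposited table gave Atoh1 a fold of 0.831, from 265 normalized counts in mutants and 319 in controls.

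Gfi1, a repressor downstream of Atoh1 that favours goblet and Paneth over enteroendocrine cells in mouse, had 2.34, 2.13 and 2 FPKM in mutants and 1.98, 1.94 and 2.74 FPKM in controls. Control 3 was the highest library, and the log2 fold change was −0.02 with an interval of −0.41 to 0.36. The ratio of Hes1 to Atoh1 within a library was 5.56, 3.32 and 3.25 in mutants and 3.88, 2.82 and 3.55 in controls, and the groups overlapped.

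**Figure D4:**
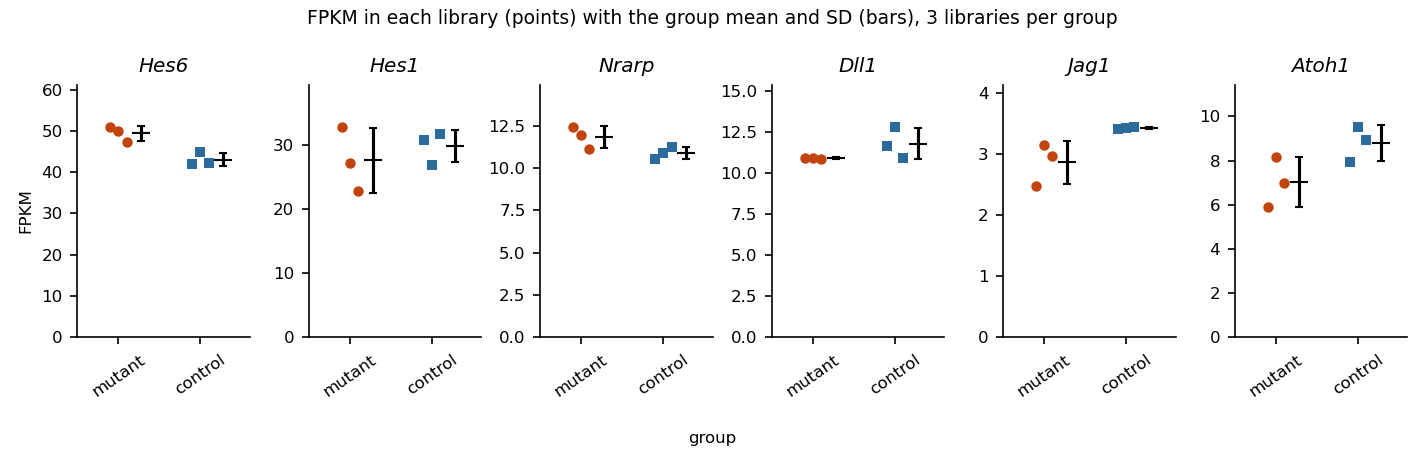
FPKM of Hes6, Hes1, Nrarp, Dll1, Jag1 and Atoh1, with 1 circle per mutant library, 1 square per control library and the group mean with SD beside them (n = 3 each), on axes that start at 0. Hes6 lies higher and Jag1 lower in each mutant than in each control, and the other 4 genes overlap.

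Factors of secretory fate outside these 35 genes were read from a list of 16, all of them tested. None passed over all rows. An unadjusted p under 0.05 was reached by 2 of the 16, both lower, beside 5.81% of all rows, of which 685 of 922 were lower. The median log2 fold change was −0.04 beside −0.05 for all rows. Neurod1, a factor of enteroendocrine differentiation, had 1.2, 1.66 and 1.75 FPKM in mutants against 2.11, 2.32 and 2.23 FPKM in controls (log2 −0.52, adjusted p = 0.786). Foxa1, a forkhead factor, had 3.57, 3.22 and 3.29 FPKM in mutants against 4.31, 3.66 and 4.25 FPKM in controls (log2 −0.27, adjusted p = 0.786). Both lay lower in each mutant than in each control on unscaled FPKM, as 9.92% of all tested rows did. The next by p were Sox9, a crypt and Paneth factor (log2 −0.18), Spdef, a goblet factor (0.11), and Olfm4, a Notch-responsive crypt gene (−0.1). Neurog3 and Insm1 are other factors of the enteroendocrine lineage on this list. Their log2 fold changes were −0.01 (SE 0.21) and −0.14 (SE 0.24), beside an SE of 0.17 for Neurod1, and their groups overlapped. Whether they differed from Neurod1 was not tested.

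Markers of the secretory lineages stood as follows. Enteroendocrine markers (Chga, Chgb, Neurod1) summed to 58.6 to 91.3 FPKM in mutants and 123 to 139 FPKM in controls, with all 3 lower. Over all tested rows 9722 of 15864 had a log2 fold change below 0. Goblet markers summed to 3302 to 3785 FPKM in mutants and 3002 to 3637 in controls (3 of 4 listed symbols had a row), Paneth markers to 3497 to 5745 in mutants and 4176 to 6848 in controls, and tuft markers to 4.88 to 12.6 in mutants and 8.34 to 9.35 in controls. Crypt stem markers summed to 306 to 398 FPKM in mutants and 326 to 402 in controls. Of these 5 sums the enteroendocrine one did not overlap between groups, it shares Neurod1 with the list before it, and its part in the levels of Atoh1 and Hes6 was not tested.

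Other genes of the Notch pathway, from a list of 49 with 48 tested, gave a median log2 fold change of −0.06. None passed over all rows. An unadjusted p under 0.05 was reached by 4 of the 48, all lower, beside 5.81% of all rows, of which 685 of 922 were lower, so nothing is read from this count about the list. These were Kat2b (log2 −0.31), Crebbp (−0.39) and Ep300 (−0.26), acetyltransferases that act as coactivators, and Fbxw7 (−0.26), the ubiquitin ligase subunit that marks cleaved Notch for breakdown. Fbxw7 had 4.3, 4.08 and 4.49 FPKM in mutants against 5.21, 5.33 and 4.93 FPKM in controls, and did not overlap. Crebbp had 4.47, 5.57 and 4.07 FPKM in mutants against 7.03, 5.82 and 5.66 FPKM in controls, and did not overlap either. The fifth by p was Bhlhe41, a repressor also known from the circadian clock (log2 −0.63). Mutants lay all below controls for 8 of the 48 in this list, beside 9.92% of all tested rows, and all above for 2, beside 3.13%.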

How the data were processed

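Per the labels' protocols, duodenal total RNA was made into TruSeq libraries. Per the submitters' processing notes the build was mm9, and the tools named are CASAVA (1.8.2), TopHat, Cufflinks and, for the comparison, DESeq. No source used here gives the other versions. FPKM values, each with an interval, were deposited for genes and for RefSeq transcripts, per the file headers. The authors' DESeq table, also deposited, gives group means of counts over size factors (a signal), their ratio as a fold, the log2 of that ratio, and p-values before and after adjustment.

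Reads behind a value were implied from the FPKM interval, taking its upper bound as 2 Poisson standard errors above the value. The main test was limma 3.58.1 (R 4.3.3) on log2(FPKM + 0.1), its prior variance following the mean level, for the 15864 rows with a mean of at least 0.1 FPKM, without scaling, covariate or block, and with Benjamini-Hochberg adjustment at 0.05. This scale understates changes of low genes. The members and lists were chosen with earlier results of these data known. All 35 members are named, and of the 2 further gene lists up to 5 by smallest p, with Neurog3 and Insm1 added beside Neurod1. Alternatives changed the pseudocount, filter, scaling, prior, library weights, acinar covariate and libraries used. The acinar covariate was the mean log2(FPKM + 0.1) over the 12 rows of the acinar markers, in which Amy2a5 counts several times. Libraries of the same replicate number in the titles deviated together from their group means (correlations across genes of 0.11, 0.21 and 0.39 for numbers 1, 2 and 3), so a replicate block was an alternative too. Mutant 2 and control 1, of different numbers, correlated at 0.13, above the value for number 1. Promoter letters are from RefSeq (GRCm38.p6), gene positions from GENCODE on mm9, and the builds were not mixed.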

Additional observations from a re-analysis of the deposited data

How the results depend on the processing

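No member passed an adjusted p of 0.05 under any of the 16 alternatives run, and with the replicate block (pairing by number) the smallest adjusted p among members was 0.606, so the block changed no call. Over all rows the block gave 2 calls, against 0 without it, and leaving out 1 library gave 0 to 3. The count of members at an unadjusted p under 0.05, 2 as reported, was 1 with a pseudocount of 1, with no filter, with trimmed mean scaling and with quantile normalization, and 0 to 3 with 1 library left out. Over all 15864 rows that count was 922 as reported. It was 920 with a pseudocount of 1, 907 with trimmed mean scaling and 791 with quantile normalization. With no filter it was 1362 of 23699 rows, and with 1 library left out it was 579 to 1187. Hes6 and Atoh1 kept their direction in all 16. The members' median, −0.03, was 0.02 with trimmed mean scaling and 0.03 with quantile normalization, and −0.07 to −0.03 with 1 library left out. In controls the shares of Notch1, Dll1 and Hes6 in their classes moved by less than 1 SD when transcripts were summed, group means were used or 1 control was left out.

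Several members changed sign, most of them near 0, but also Hes7 (0.41 as reported), Maml3 (−0.28) and Hes2 (0.15). With trimmed mean scaling the log2 fold changes were 0 for Notch1, 0.01 for Notch4, 0.03 for Dll3, 0.02 for Jag2, 0.02 for Mfng, 0.02 for Psen2, 0.03 for Ncstn and 0.03 for Gfi1. With quantile normalization they were 0.03 for Notch1, 0.07 for Notch4, 0.09 for Dll3, 0.07 for Jag2, 0.01 for Maml1, 0.06 for Mfng, 0.03 for Psen2 and 0.07 for Gfi1. With library weights they were 0.05 for Dll3, 0.07 for Jag2 and 0.03 for Gfi1, and with a pseudocount of 1 Dll3 was at 0. With the acinar covariate they were 0.03 for Notch1, −0.05 for Dll4, −0.06 for Hes2, 0.03 for Maml1, 0.01 for Maml3, −0.18 for Lfng and 0.02 for Ncstn. With 1 library left out the ranges were −0.16 to 0.04 for Notch1, −0.29 to 0.09 for Notch3, −0.08 to 0.04 for Notch4, −0.15 to 0.1 for Dll3, −0.01 to 0.16 for Dll4, −0.45 to 0.22 for Jag2, −0.26 to 0 for Hes1, −0.02 to 0.29 for Hes2, −0.07 to 0.68 for Hes7, −0.1 to 0.09 for Rbpj, −0.11 to 0.18 for Lfng, −0.16 to 0.15 for Mfng, −0.04 to 0.07 for Adam17, −0.07 to 0.03 for Psen2, −0.06 to 0.04 for Ncstn and −0.11 to 0.13 for Gfi1. The cause of these changes was not tested. Depth limits Hes3, Hes5 and Hes7.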

Other observations

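Hes6 and Atoh1 lay on opposite sides, and their ratio within a library, chosen after the values were seen, was 8.65, 6.11 and 6.76 in mutants against 5.29, 4.71 and 4.73 in controls. The lowest mutant ratio, that of mutant 2, stood above the highest control ratio, that of control 1, and no test was run on it. It divides the 2 members with the smallest p, which lie in opposite directions, so the choice largely set this separation. The groups overlapped for the other 10 of 11 ratios computed.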
